A study of Mus musculus with 4 samples.

Results

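The genes described here are named for the nuclear subunits of the mitochondrial respiratory chain and of ATP synthase. They were chosen by name alone, as symbols that begin with Ndufa, Ndufb, Ndufc, Ndufs or Ndufv and a digit, with Uqcr, with Cox4 to Cox8, or with Atp5, together with Sdha, Sdhb, Sdhc and Sdhd. Of 24532 genes in the table, 84 had such a name, and 82 reached 1 FPKM (fragments per kilobase of transcript, relative to the mapped fragments of the library) in at least 1 of 4 libraries, as did 13209 genes in all. The 82 genes comprised 35 of complex I, 4 of complex II, 8 of complex III, 18 of complex IV and 17 of complex V, and each of them was at 1 FPKM or more in all 4 libraries. The other names were the testis forms Cox8c, at 0.080 FPKM in young sham and listed at 0 in the other libraries, and Cox7b2, listed at 0 in all 4. Atp5s and Atp5sl are not subunits of ATP synthase, and Cox7a2l, counted with complex IV, is a factor that joins complexes into supercomplexes. They were kept because the choice was by name.

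The libraries were made from articular cartilage of male wild-type C57BL/6 mice, as sham-operated or injured joints of young or adult animals, with no transgene or drug named for any group. Young mice were 3 weeks old. Adult mice were 12 weeks old by the sample titles, 14 weeks by the age labels and 10 weeks by the study's methods. The methods describe full-thickness cartilage injury (FTCI), a needle wound through the cartilage, sampled 3 days later, whereas the titles name DMM surgery, in which the medial meniscus is cut loose. The label of the adult sham sample reads 3 to 14 days. Per the methods, each library held the pooled cartilage of 5 mice without or 10 mice with injury. With 1 library per group, no difference below has a replicate check, and no SD between replicates and no p-value is given.

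Complexes I to IV sit in the inner mitochondrial membrane and pass electrons from NADH and succinate to oxygen, and complexes I, III and IV pump protons across the membrane while they do so. ATP synthase, complex V, lets the protons back through a rotating ring and makes ATP. Cartilage has no blood vessels, and its chondrocytes are known for low oxygen use and for making much of their ATP by glycolysis. Several subunits of complex IV have alternative forms, among them the heart and skeletal muscle forms Cox6a2, Cox7a1 and Cox8b, and Cox4i2 and Ndufa4l2, which are known to be raised at low oxygen.

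Promoter sequence is shown for 4 of these isoform genes because the muscle forms and their ubiquitous partners differed in the libraries, as given with the isoform shares below. For Cox6a2, the remaining muscle form, no promoter window was matched. The sequences are the 100 bases before the start site in RefSeq (GRCm38.p6), written 5′ to 3′ on the gene's strand, with each CpG in capitals.
Cox7a1 (chr7:30184071-30184170, plus strand): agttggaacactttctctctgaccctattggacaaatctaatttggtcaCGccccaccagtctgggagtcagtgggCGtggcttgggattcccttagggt
Cox7a2 (chr9:79759854-79759953, minus strand): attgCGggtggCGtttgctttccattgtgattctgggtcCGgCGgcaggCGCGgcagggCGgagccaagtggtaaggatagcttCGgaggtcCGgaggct
Cox8b (chr7:140900447-140900546, minus strand): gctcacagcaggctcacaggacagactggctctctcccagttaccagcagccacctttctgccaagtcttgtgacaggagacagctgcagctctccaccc
Cox8a (chr19:7217617-7217716, minus strand): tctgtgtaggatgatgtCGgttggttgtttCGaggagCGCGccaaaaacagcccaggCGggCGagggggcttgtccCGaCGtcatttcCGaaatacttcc
The stretch of Cox7a1 held 2 CpG and that of Cox8b held 0, against 9 in each of the ubiquitous partners Cox7a2 and Cox8a. Over the window of 250 bases before to 50 bases after the start, the count was 7 for Cox7a1 against 20 for Cox7a2, and 2 for Cox8b against 19 for Cox8a. The 74 windows of 68 of the 82 genes had a median of 19 CpG, against 7 over 32851 windows of all genes.

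Nuclear respiratory factor 1 (NRF1), GABPA and YY1 are known regulators of many of these genes, so the same windows were searched on both strands for short motifs. The palindromic NRF1 motif, shown in capitals in the next paragraph, occurred in 5 member windows (6.76%) against 0.971% of all windows. The shorter NRF1 core TGCGCA, which can share 5 bases with that motif, occurred in 25.7% of member windows against 7.76% of all. For GABPA (CCGGAAG) the shares were 21.6% and 8.86%, and for YY1 (AAGATGGC) 16.2% and 2.75%. CCAAT, a general promoter element, was in 41.9% of member windows and 37.4% of all. The forward YY1 motif lay after the start site in 9 member windows, 12.2% against 0.840% of all windows, with its first base between positions 23 and 39 counted from the start site as position 1. Those members were Atp5j2, Atp5sl, Ndufa3, Ndufa9, Ndufb8, Ndufc1, Ndufs4, Ndufs6 and Ndufs7. The NRF1 and GABPA motifs each hold a CpG, of which member windows had more, and windows of like CpG count were not compared. These are matches of letters in a window and not measured binding sites.

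Of the 5 windows with the palindromic NRF1 motif, 4 held it before the start site, and 60 bases around it are shown for these genes with the motif in capitals.
Atp5g2 (chr15:102671055-102671114, minus strand): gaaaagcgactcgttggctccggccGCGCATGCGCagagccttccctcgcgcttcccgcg
Atp5k (chr5:108434415-108434474, minus strand): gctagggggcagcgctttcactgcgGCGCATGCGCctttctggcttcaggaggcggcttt
Cox6a1 (chr5:115349086-115349145, minus strand): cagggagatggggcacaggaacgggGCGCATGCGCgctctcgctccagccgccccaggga
Ndufa11 (chr17:56717677-56717736, plus strand): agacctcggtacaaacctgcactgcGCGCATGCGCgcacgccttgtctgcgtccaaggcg
The motif began 42 bases before the start of Atp5g2, which encodes a ring subunit of ATP synthase, 50 before Atp5k, a membrane subunit, 162 before Cox6a1, the ubiquitous form of Cox6a, and 60 before Ndufa11, an accessory subunit of complex I. In Uqcrc1 it began 30 bases after the start site.

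The tissue label was checked against markers of cartilage and of cells that could be taken with it. Of 11 chondrocyte markers 10 were in the table, all at 1 FPKM or more in every library, and Col2a1, the main cartilage collagen, ranged from 3173 to 9349 FPKM. Cytl1, also a cartilage gene, reached 26541 FPKM in adult sham, where the 10 most abundant genes held 26.5% of all FPKM against 14.7% to 17.5% in the other libraries. Markers of other cells were present as well. Summed FPKM of 7 macrophage markers were 166 in sham and 1512 in injured young cartilage, and 245 and 1336 in adult cartilage. For 18 skeletal muscle markers the sum was 1118 and 886 in sham and injured young cartilage, and 2104 and 584 in adult cartilage. For 7 erythroid markers it ranged from 3031 in adult injured to 18440 in young injured. In such bulk samples, fewer cells of a type and less RNA per cell cannot be told apart.

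The respiratory chain genes were abundant in all libraries. Their median was 97.8 FPKM in sham and 119.5 in injured cartilage of young mice, and 82.1 and 91.7 FPKM in that of adults. Summed, they held 2.01% and 2.12% of all FPKM in sham and injured young cartilage, and 1.63% and 1.94% in adult cartilage. Leaving the 10 most abundant genes of each library out of the total gave 2.36%, 2.57%, 2.22% and 2.29% in the same order, so that the share was still lowest in adult sham.

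Levels differed between the complexes. Complexes IV and V had the highest medians in every library, complex IV with 182, 180, 113 and 134 FPKM and complex V with 190, 220, 114 and 156 FPKM in sham and injured young and then sham and injured adult cartilage. Complex III followed with 101, 111, 68.2 and 87.7 FPKM in that order. Complex I had 74.7, 77.9, 58.9 and 61.9 FPKM, and complex II had 67.4, 74.3, 60.5 and 62.6 FPKM, so that these medians lay close together. Cox4i1, the ubiquitous form of Cox4, was the most abundant member in both young libraries at 348 and 429 FPKM. In the adult libraries this place was taken by Ndufa4l2, at 566 FPKM in sham and 744 FPKM in injured cartilage. Cox6b2, the testis form of Cox6b, was the least abundant member throughout at 1.57 to 4.06 FPKM.

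**Figure D1:**
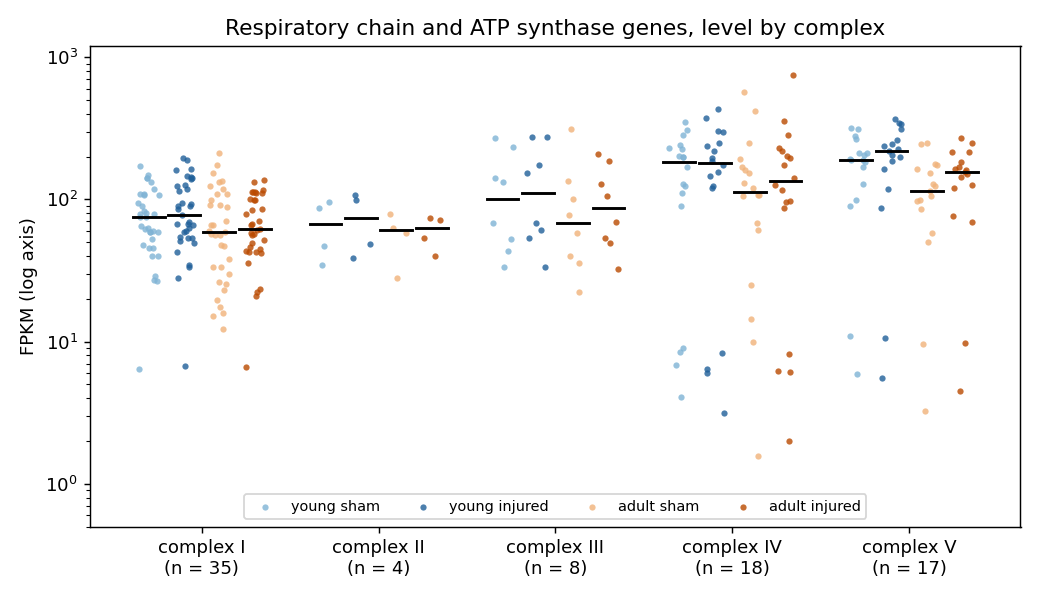
FPKM (log axis) of the 82 genes by complex, 1 point per gene and library, with the median of each complex as a black bar. Complexes IV and V have the highest medians, and the low points of complex IV at 1.57 to 25.2 FPKM are its muscle and testis forms.

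The order of the genes by level was much the same in 3 of the libraries. Across the 82 genes, whose transcripts had 39.0% to 61.1% GC, the rank correlation of levels was 0.98 between young sham and young injured. It was 0.97 between young sham and adult injured, and 0.96 between young injured and adult injured. Adult sham stood apart, at 0.86 with young sham, 0.85 with young injured and 0.91 with adult injured. The SD over genes of the log2 difference was 0.32 between young sham and adult injured, and 0.70 between young sham and adult sham. As the adult sham library is the only one of its group, both comparisons that use it rest on it alone and cannot be given without it.

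The first comparison asked how young cartilage changed 3 days after injury. The respiratory chain genes were slightly higher in young injured than in young sham cartilage, with a median log2 ratio of FPKM + 1 of 0.19 against -0.02 over the 13209 genes, and 67 of 82 genes were above 0, against 47.4% of all genes. Among all genes with transcripts of up to 2137 bases the median was 0.08. The shift was small and narrow. None of the 82 genes was 2-fold higher, against 6.28% of all genes, and none was 2-fold lower, against 1.74%, or 8.02% in either direction. Their log2 ratios ran from -0.54 to 0.48 with an SD over genes of 0.20, against 0.62 over all genes.

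By complex, the median log2 ratio in young cartilage was 0.20 for complex I, 0.16 for complex II, 0.12 for complex III, 0.24 for complex IV and 0.16 for complex V. In complex I 32 of 35 genes were above 0, against the same 47.4% of all genes. The 14 genes classed as core subunits, such as the NADH-oxidizing Ndufv1 and the F1 head subunits Atp5a1 and Atp5b, had a median of 0.13. They include the membrane anchors Sdhc and Sdhd of complex II and no gene of complex IV. Ndufv1 was at 39.7 FPKM in young sham and 42.9 in young injured, and Atp5b at 320 and 339 FPKM. The highest log2 ratio was that of Uqcrq, a small subunit of complex III, at 43.1 FPKM in young sham and 60.7 FPKM in young injured. At the low end were Cox4i2 and Ndufa4l2, both about 0.69 times the sham level. Cox4i2 was at 284 FPKM in young sham and 195 in young injured, and Ndufa4l2 at 225 and 155 FPKM. Scaling each library to the same sum of FPKM left the median of the 82 genes at 0.07, with that of all genes at -0.13. All 7 macrophage markers were more than 2-fold higher in the injured library at each age. In young injury 4 of 6 osteoclast and 3 of 7 neutrophil markers were also at least 2-fold higher, with medians of 1.23 and 0.86, and the median of 7 erythroid markers was 0.89. The part of these cells in the shift was not tested.

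The second comparison asked the same of adult cartilage. The 82 genes as a group followed the other genes, with a median log2 ratio of 0.23 against 0.25 over all genes, and 51 of 82 were above 0, against 72.2% of all genes. After median-of-ratios scaling both medians were below 0, at -0.10 for the 82 genes and -0.02 for all genes. Single genes spread more widely than in young cartilage, with an SD of 0.58 over the 82 genes and a range from -1.83 to 1.84. At least 2-fold higher were 4 of 82 genes, against 9.5% of all genes, and at least 2-fold lower were 3 of 82, against 2.01%. With median-of-ratios scaling 1 gene was higher and 4 were lower, against 6.07% and 3.99% of all genes. The 4 higher genes were Ndufb5 and Ndufc2, accessory subunits of complex I, Uqcrh, the hinge protein of complex III, and Cox7c, a small subunit of complex IV. The 3 lower genes were Cox6a2, Cox7a1 and Ndufs5, an accessory subunit of complex I. Osteoclast markers were higher in the same comparison, 6 of 6 by at least 2-fold. At least 2-fold higher were also 2 of 7 osteoblast and 3 of 10 chondrocyte markers, while 1 chondrocyte marker was at least 2-fold lower. Of 7 erythroid markers 3 were at least 2-fold lower, with a median of -0.46. The part of these cells was not tested.

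Ndufc2 (chr7:97400003-97407800) was at 61.8 and 60.2 FPKM in sham and injured young cartilage, and 12.2 and 46.4 FPKM in adult cartilage. Cox7c (chr13:86044798-86046795) was at 201, 187, 61.3 and 142 FPKM in these libraries. Ndufb5 (chr3:32737057-32751559) was at 52.8, 53.6, 17.6 and 45.0 FPKM. In all 3 genes adult sham was the low library and the other libraries lay closer together. Uqcrh showed the same order, with 268 FPKM in sham and 274 in injured cartilage of young mice, and 100.4 and 207 FPKM in that of adults. The log2 ratio of adult injured to adult sham was 1.84 for Ndufc2, 1.19 for Cox7c, 1.31 for Ndufb5 and 1.04 for Uqcrh. After median-of-ratios scaling Ndufc2 was at 1.52, while Ndufb5 at 0.98, Cox7c at 0.86 and Uqcrh at 0.70 were under 2-fold. In young cartilage the ratio of injured to sham was between -0.11 and 0.03 for all 4 of these genes.

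**Figure D2:**
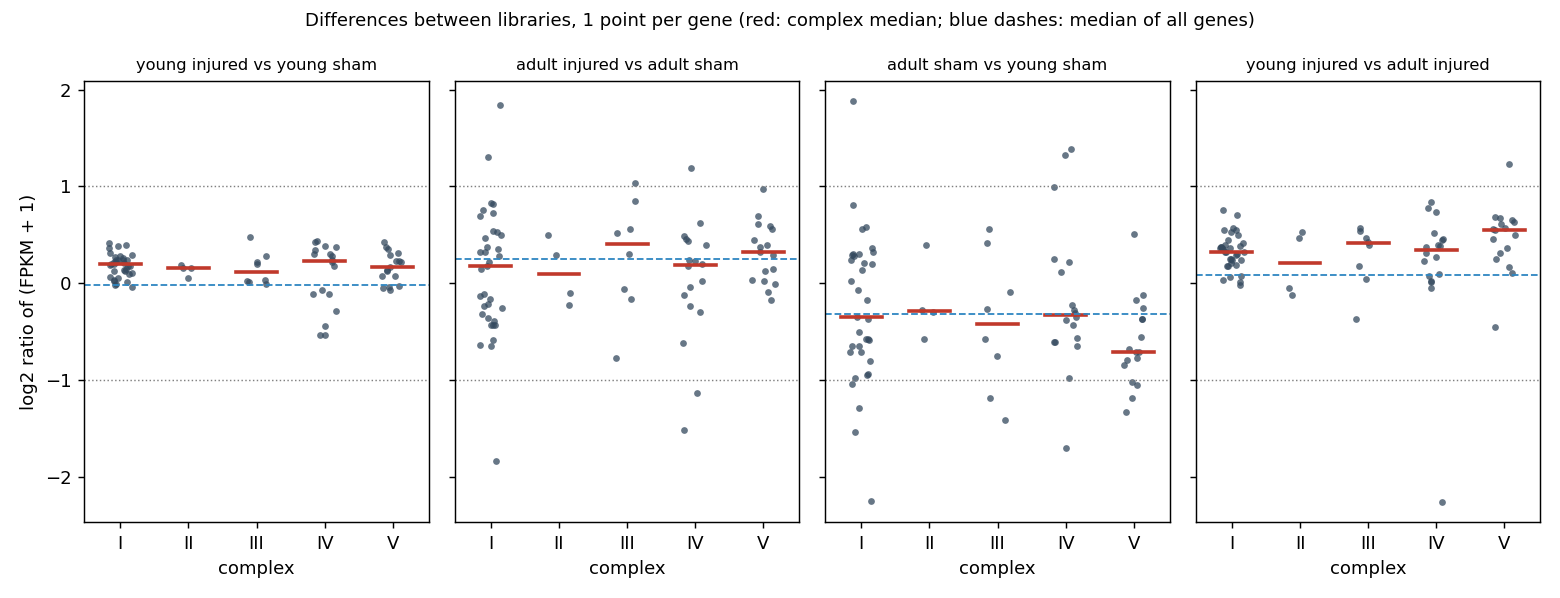
Log2 ratio of FPKM + 1 of the 82 genes in the 4 comparisons, by complex, with complex medians in red, the median of all 13209 genes as a blue dashed line and 2-fold as dotted lines. The young injury comparison is narrow, from -0.54 to 0.48, and both comparisons that use adult sham reach 2-fold each way. With median-of-ratios scaling the medians of complexes I to IV in adult against young sham turn from below to above 0, and those of complexes I, II, IV and V in adult injury turn from above to below 0.

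Adult and young sham cartilage were compared to ask how the genes differed between the ages in cartilage without injury, with the adult sham sample labelled 3 to 14 days. The 82 genes were lower in adult sham, with a median log2 ratio of -0.37, but so were all genes, at -0.31. Median-of-ratios scaling moved the median of all genes to 0.03 and that of the 82 genes to 0.06, and quantile normalization moved them to -0.00 and -0.15, so the direction of the group depended on the scaling. At least 2-fold lower were 11 of 82 genes, against 14.6% of all genes, and at least 2-fold higher were 3 of 82, against 3.66%. With median-of-ratios scaling 3 genes were lower and 6 were higher, against 7.06% and 8.02% of all genes. The spread was wide, from -2.25 to 1.88, with an SD of 0.70 over the 82 genes and 0.80 over all genes. Of 7 osteoblast markers 4 were at least 2-fold higher in adult sham, with a median of 1.53. Of 7 erythroid markers 5 were at least 2-fold lower and 1, Hbb-bs, at least 2-fold higher, with a median of -1.25. Of 10 chondrocyte markers 5 were at least 2-fold lower and 2, Comp and Cytl1, at least 2-fold higher, with a median of -1.24. The part of these cells in the levels of the 82 genes was not tested.

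ATP synthase was lowest among the complexes relative to the other genes. The 17 genes counted with it include Atp5s and Atp5sl, which are not its subunits. Of the 17 genes 16 were lower in adult than in young sham cartilage and 1 was higher, where 30.4% of all genes were higher. Below the median of all genes were 13 of the 17. The median log2 ratio of the 17 genes was -0.70, which became -0.28 with median-of-ratios scaling and -0.47 with quantile normalization. The medians of complexes I, II, III and IV were -0.34, -0.28, -0.42 and -0.33, and each of them turned to between 0.01 and 0.14 with median-of-ratios scaling. The c subunits, which form the rotating ring, were all more than 2-fold lower in adult sham, with log2 ratios of -0.89 to -0.61 after median-of-ratios scaling. Atp5g1, Atp5g2 and Atp5g3 are known to encode the same mature protein, and their summed level was 527 and 626 FPKM in sham and injured young cartilage, and 234 and 389 FPKM in adult cartilage. The epsilon subunit Atp5e of the central stalk was at 312, 368, 154 and 249 FPKM. Its neighbour in the stalk, the delta subunit Atp5d, went the other way between the sham libraries, at 89.3 FPKM in sham and 87.7 in injured cartilage of young mice, and 127 and 120.2 FPKM in that of adults. The catalytic head was among the members that differed less, as Atp5b was at 320 FPKM in young sham and 248 in adult sham, and Atp5a1 at 213 and 179 FPKM. With median-of-ratios scaling their log2 ratios turned from -0.37 to 0.07 for Atp5b and from -0.25 to 0.18 for Atp5a1.

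In complex I, 4 of 35 genes were at least 2-fold lower in adult sham, against 14.6% of all genes, namely the accessory subunits Ndufb2, Ndufb5, Ndufc1 and Ndufc2. After median-of-ratios scaling Ndufb2 at -0.61 and Ndufc1 at -0.85 were under 2-fold, while Ndufs7 at 1.25 and Ndufb10, another accessory subunit, at 1.02 were more than 2-fold higher. Ndufb2 was at 79.0 FPKM in young sham and 37.9 in adult sham, and Ndufc1 at 83.5 and 33.7 FPKM. The 7 core subunits went both ways. Ndufs7, which holds the last iron-sulfur cluster before ubiquinone, was at 75.1 and 89.1 FPKM in sham and injured young cartilage, and 133 and 84.3 FPKM in adult cartilage. Ndufv1, the FMN subunit, was also higher in adult sham, at 58.9 FPKM against 39.7 in young sham, with a log2 ratio of 0.56. Ndufv2, its partner in the NADH-oxidizing arm, was at 39.7 FPKM in sham and 49.0 in injured cartilage of young mice, and 19.7 and 35.6 FPKM in that of adults, so that within this arm the subunits of adult sham stood on opposite sides of the young level.

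Complex II also serves the tricarboxylic acid (TCA) cycle. The flavoprotein Sdha was at 47.2, 48.9, 62.5 and 53.3 FPKM in sham and injured young and then sham and injured adult cartilage. The iron-sulfur subunit Sdhb was at 95.9, 107, 79.0 and 73.9 FPKM, and the membrane anchors Sdhc and Sdhd were lower in adult than in young sham by 0.29 and 0.57 on the log2 scale. With median-of-ratios scaling Sdhb and Sdhc turned to 0.16 and 0.13 in this comparison. None of the 4 genes passed 2-fold in any comparison.

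In complex III the small subunits parted. Uqcrh and Uqcrb were more than 2-fold lower in adult sham, with log2 ratios of -0.97 and -0.75 after median-of-ratios scaling. Uqcrb was at 134 and 154 FPKM in sham and injured young cartilage, and 58.2 and 105 FPKM in adult cartilage. Uqcr10 was highest there instead, at 235, 275, 315 and 185 FPKM. Uqcrc1, a core protein without a redox centre, was at 52.6, 53.9, 78.1 and 69.9 FPKM, and its partner Uqcrc2 at 67.8, 68.5, 39.8 and 49.2 FPKM. The Rieske iron-sulfur protein Uqcrfs1 was at 33.5, 33.4, 22.2 and 32.4 FPKM, lowest in adult sham with the other libraries between 32.4 and 33.5 FPKM.

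Injured cartilage was last compared between the ages, without use of the sham libraries. Young injured cartilage had higher levels of 75 of the 82 genes than adult injured cartilage, against 58.7% of all genes. The median log2 ratio was 0.37 against 0.09 over all genes. The median of the 82 genes was 0.19 with libraries scaled to the same sum, 0.25 with median-of-ratios scaling and 0.20 with quantile normalization, and it was above that of all genes in each. Nearly all differences were small, as 1 of 82 genes was at least 2-fold higher, against 4.25% of all genes, and 1 was at least 2-fold lower, against 2.48%, or 6.73% in either direction. Complex V had the highest median at 0.55, with 16 of 17 genes above 0, followed by complex III at 0.41, complex IV at 0.34, complex I at 0.33 and complex II at 0.21. The 14 genes classed as core subunits had a median of 0.12, with 7 above and 7 below the median of all genes. Complex II was split, with Sdhb and Sdhd above 0 and Sdha and Sdhc below it. Markers of other cells also differed between the injured libraries. All 7 erythroid markers were at least 2-fold higher in young injured, with a median log2 ratio of 3.21, while 4 of 7 osteoblast and 4 of 6 osteoclast markers were at least 2-fold lower, with medians of -1.09 and -1.14. Their part in the levels of the 82 genes was not tested.

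Atp5g1 (chr11:96072793-96075694) was the gene more than 2-fold higher in young injured cartilage. It was at 128 FPKM in sham and 164 in injured cartilage of young mice, and 50.6 and 69.4 FPKM in that of adults, so that both young libraries were above both adult libraries. The share of Atp5g1 in the summed FPKM of the 3 c subunit genes was 24.3% and 26.2% in sham and injured young cartilage, and 21.6% and 17.8% in adult cartilage. Of this sum Atp5g2 held 36.4% to 43.3%, but 87.7% of its 31-base transcript words also occur in another gene, so that its own level is uncertain.

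Ndufa4l2 (chr10:127509274-127517154), a paralog of Ndufa4 and a known target of hypoxia-inducible factor, was the gene more than 2-fold lower. It was at 225 FPKM in sham and 155 in injured cartilage of young mice, and 566 and 744 FPKM in that of adults, and adult exceeded young injured cartilage 4.80-fold. Both adult libraries were above both young libraries, under each of the scalings tried. Ndufa4 itself was at 168, 218, 107 and 127 FPKM in these libraries. The share of Ndufa4l2 in the sum of both genes was therefore 57.3% and 41.6% in sham and injured young cartilage, and 84.1% and 85.4% in adult cartilage. Such a share within a library does not change where a scaling multiplies all genes of the library by 1 factor. Cox4i2 (chr2:152753916-152765039), the other form known to be raised at low oxygen, did not show this difference between the ages. It held 44.9% and 31.3% of the summed Cox4 FPKM in sham and injured young cartilage, and 31.5% and 35.4% in adult cartilage.

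**Figure D3:**
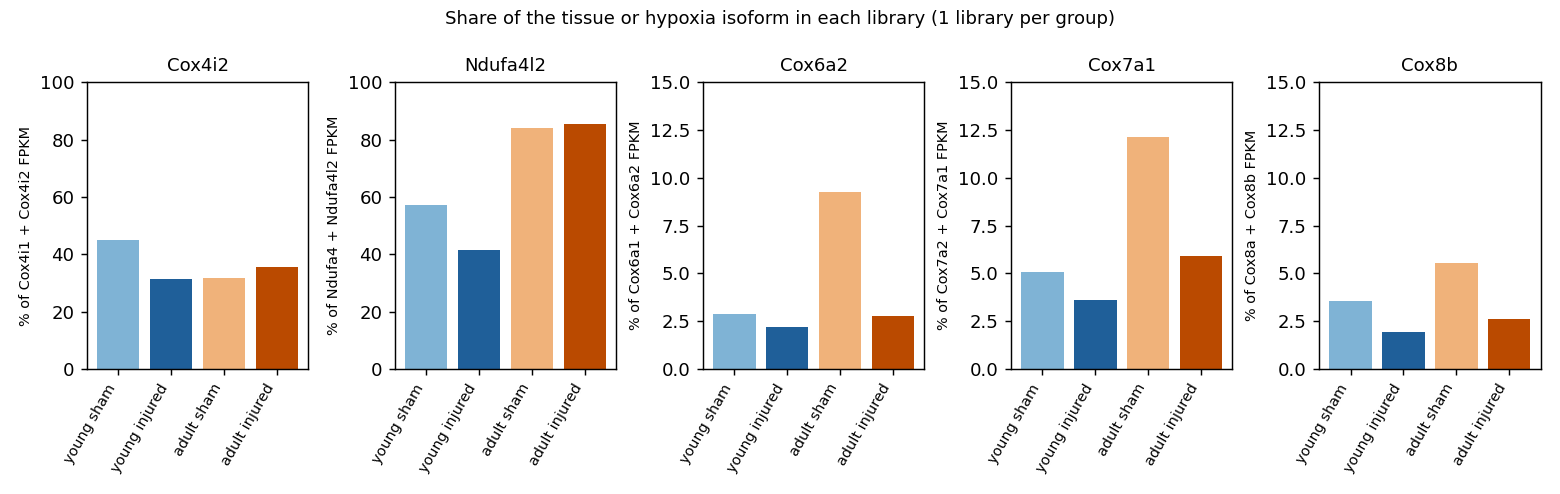
Share of an alternative form in the summed FPKM of its isoform pair, in percent, with 1 bar per library. Ndufa4l2 is above 84% in both adult libraries and at most 57.3% in the young, whereas the muscle forms Cox6a2, Cox7a1 and Cox8b are highest in adult sham, on axes that end at 15%.

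The muscle forms of complex IV made up small shares, highest in adult sham. Cox6a2 (chr7:128205435-128206366) was at 8.99 and 8.29 FPKM in sham and injured young cartilage, and 25.2 and 8.16 FPKM in adult cartilage, or 2.85%, 2.17%, 9.24% and 2.78% of Cox6a. Cox7a1 (chr7:30184171-30186030) was at 6.80, 6.45, 14.5 and 6.07 FPKM, or 5.06%, 3.59%, 12.1% and 5.93% of Cox7a. Cox8b (chr7:140898942-140900446) was at 8.46, 5.99, 9.99 and 6.21 FPKM, or 3.55%, 1.95%, 5.54% and 2.61% of Cox8. Adult sham was thus the high library for all 3 genes. In the adult injury comparison the log2 ratio was -1.52 for Cox6a2, -1.13 for Cox7a1 and -0.61 for Cox8b.

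Markers of skeletal muscle moved with these forms. Of 18 muscle markers 16 reached 1 FPKM, and 13 of the 16 were at least 2-fold lower after adult injury, against 2.01% of all genes, with a median log2 ratio of -1.67 and a range from -2.51 to -0.63. Between the sham libraries 8 of the 16 were at least 2-fold higher in adult, against 3.66% of all genes, with a median of 1.15 and a range from -0.68 to 2.26. The markers below 0 there were Casq1 at -0.68, Pvalb at -0.20 and Tnni2 at -0.06. Acta1, the skeletal muscle actin, was at 189 FPKM in sham and 182 in injured cartilage of young mice, and 500 and 98.0 FPKM in that of adults, and the muscle creatine kinase Ckm at 63.5, 74.0, 256 and 71.5 FPKM. Of 4 listed markers of brown fat, where these forms are also found, 2 reached 1 FPKM. Cidea was at 6.60, 5.18, 1.36 and 1.68 FPKM and Dio2 at 3.07, 3.06, 2.37 and 3.57 FPKM. The part of muscle or brown fat RNA in the levels of Cox6a2, Cox7a1 and Cox8b was not tested.

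Ndufs5 (chr4:123712710-123718186) had the most positive log2 ratio of the 82 genes between the sham libraries and the most negative after adult injury. It was at 6.37 and 6.68 FPKM in sham and injured young cartilage, and 26.1 and 6.62 FPKM in adult cartilage, with log2 ratios of 1.88 and -1.83. Of its 31-base transcript words 47.3% also occur in BC002163, a gene of related sequence with 96.7, 107, 42.8 and 79.5 FPKM in the same libraries. Summed over both genes the level was 103, 114, 68.9 and 86.1 FPKM. On the sum the ratio of adult to young sham was -0.57 and that of adult injured to adult sham 0.32, opposite in sign to Ndufs5 alone. The share of Ndufs5 in the sum was 6.18%, 5.87%, 37.9% and 7.69%. How fragments were divided between these genes was not tested, and the level of Ndufs5 is uncertain.

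**Figure D4:**
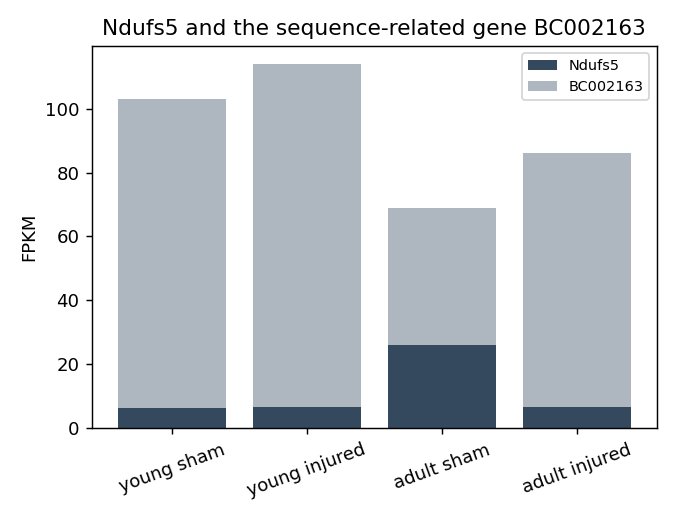
FPKM of Ndufs5 and BC002163, stacked, with 1 bar per library. Ndufs5 is highest in adult sham at 26.1 FPKM, whereas the sum of both is lowest there at 68.9 FPKM.

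Shared sequence touched other members too. In 8 of the 82 genes at least 50% of the 31-base words occur in another gene, among them Atp5g2, Atp5l at 85.4%, Atp5o at 63.2% and Cox7c at 55.7%. In 47 genes the share was under 10%, and in Ndufc2, Cox4i2, Cox7a1 and Cox8b it was 0. For Cox7c the gene with most of the shared words, the pseudogene Gm10012, was at 0 to 0.167 FPKM. Cox7c held at least 99.9% of the sum of both in each library, and how fragments were divided between them was not tested.

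The difference between adult sham and young sham moved with base composition. Over the 82 genes the rank correlation between transcript GC content and log2 ratio was 0.43, and over 13074 genes with a transcript sequence it was 0.42. In the GC range below 49.8% the 28 members had a median of -0.63, in the middle range -0.46, and above 54.3% a median of 0.08. Ndufc2 has 48.8% GC and Ndufa4l2 59.3%. Partners that went opposite ways between the sham libraries also differ in GC. Ndufv1 has 56.7% and Ndufv2 42.0%, Uqcrc1 57.5% and Uqcrc2 44.4%, and Atp5d 61.1% and Atp5e 54.6%. In adult injury the same correlation was -0.35 for the 82 genes and -0.21 for all genes, in young injury -0.03 and 0.10, and between the injured libraries -0.28 and -0.32. Transcript length also moved with the ratios in young injury, with a rank correlation of -0.25 over all genes and -0.17 over the 82 genes. Between the injured libraries it was -0.02 over all genes and -0.25 over the 82 genes. The shortest of 3 length ranges of all genes, up to 2137 bases, had a median of 0.08 in young injury, 0.22 in adult injury, -0.17 in adult against young sham and 0.12 between the injured libraries. The part of GC content and length in the levels of the 82 genes was not tested.

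**Figure D5:**
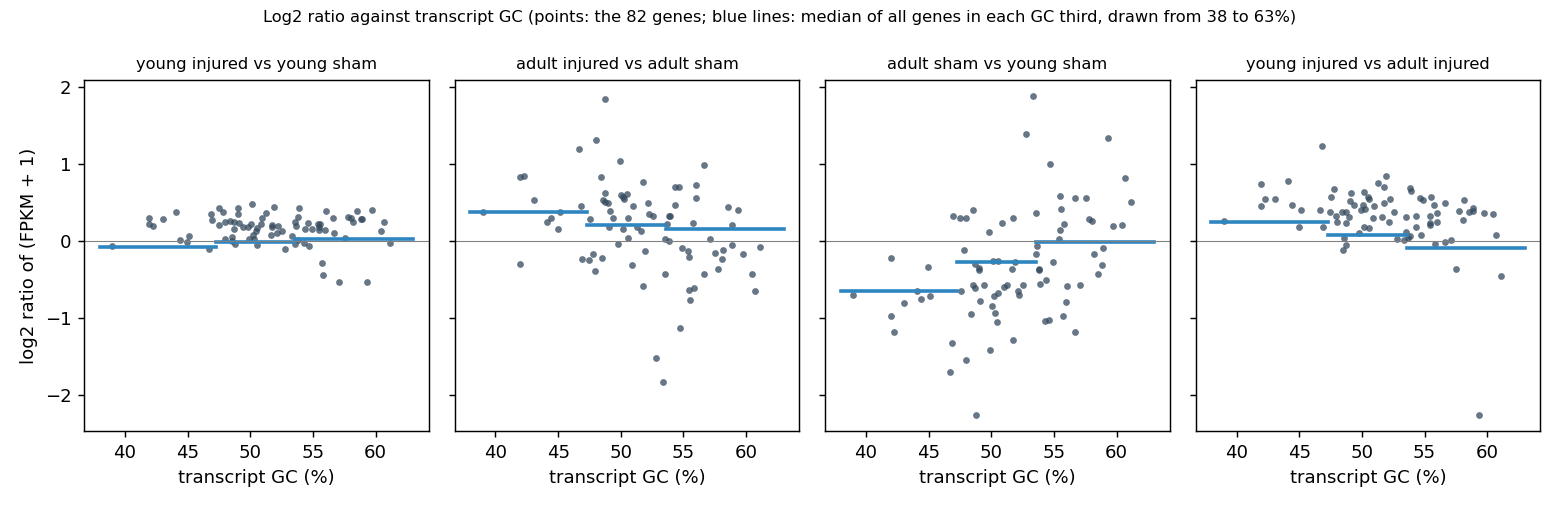
Log2 ratio of FPKM + 1 against transcript GC content in percent, 1 point for each of the 82 genes, with the median of all genes in each of 3 GC ranges as blue lines. In adult against young sham the points go from a median of -0.63 at low GC to 0.08 at high GC, and in young injury no such slope is seen (rank correlation -0.03).

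Other genes of the pathway were read from lists written by function. The 13 subunits encoded in mitochondrial DNA were not analysed here. Of 49 assembly factors, which build the complexes but are not part of them, 47 reached 1 FPKM, and their median log2 ratio was 0.07 in young injury, 0.20 in adult injury, -0.41 in adult against young sham and 0.16 between the injured libraries. At least 2-fold higher in adult injury were 3 of the 47, against 9.5% of all genes, namely Uqcc1 and Uqcc2 of complex III and Cox20 of complex IV. Uqcc2 was at 98.4 FPKM in sham and 136 in injured cartilage of young mice, and 62.7 and 132 FPKM in that of adults. At least 2-fold lower in adult sham were 5 of the 47, against 14.6% of all genes, namely Tmem126b, Uqcc1, Cox18, Cox19 and Tmem70. None passed 2-fold in young injury or between the injured libraries.

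Of 6 listed genes for cytochrome c and for subunits or regulators with other names, 5 reached 1 FPKM, and 4 of these were at least 2-fold lower in adult than in young sham cartilage, against 14.6% of all genes. Usmg5, a small ATP synthase subunit, was at 229, 266, 78.4 and 146 FPKM in sham and injured young and then sham and injured adult cartilage. Ndufab1, the acyl carrier protein of complex I, was at 52.4, 62.4, 16.5 and 37.9 FPKM. Cycs, the cytochrome c that links complexes III and IV, was at 21.9, 26.4, 10.9 and 16.6 FPKM. Adult sham was the lowest library for each. In adult injury 2 of the 5 were at least 2-fold higher, against 9.5% of all genes, Ndufab1 and 2010107E04Rik.

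Of 10 carriers and uncoupling proteins 7 reached 1 FPKM, with medians of 0.05, 0.45, -0.26 and 0.33 in the 4 comparisons. The ADP/ATP carrier Slc25a4, the form of heart and muscle, was at 259 and 229 FPKM in sham and injured young cartilage, and 249 and 182 FPKM in adult cartilage. Slc25a5, the form of proliferating cells, was at 150.3, 231, 91.8 and 153 FPKM, and Ucp2, an uncoupling protein found in many macrophages, at 81.3, 139, 86.5 and 160.0 FPKM. Both were higher in the injured than in the sham library at each age, by less than 2-fold. Vdac3, a channel of the outer membrane, was the 1 gene of these 7 that passed 2-fold, lower in adult sham, against 14.6% of all genes. It was at 107 FPKM in young sham and 51.2 in adult sham.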

How the data were processed

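Messenger RNA of articular cartilage was measured in 4 libraries, 1 per group, and each column of the table was matched to its library by name. Libraries were made with a stranded poly-A kit and sequenced paired-end. The authors deposited FPKM per gene on mm10. The submitters' processing notes name HISAT, HISAT2 2.1.0, STAR, SAMtools and StringTie 1.3.4d with no role or order. FPKM are divided by transcript length and mapped fragments, so a few abundant genes can lower all others. The depth is not stated. If the steps of the lowest FPKM are single fragments, the libraries held between 25700000 and 30800000 fragments, most in adult sham. No counting interval is given.

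Log2 ratios of FPKM + 1 were calculated for the 13209 genes with 1 FPKM or more in at least 1 library. A gene was counted at 2-fold or more, with no test. The added 1 FPKM understates differences of low genes. The genes and lists were chosen with earlier results of these data known. Members were named if they passed 2-fold in a comparison, were core subunits or isoform pairs, or were highest or lowest of their complex in level or log2 ratio. Atp5j2, Atp5o, Atp5sl, Cox7a2l, Ndufa9, Ndufa11, Ndufb8, Ndufs4, Ndufs6 and Uqcrc2 fall outside this rule and were chosen after their values were seen, for a promoter motif, for shared sequence, as no subunit or as the partner of a named gene. Cidea, Dio2, Cycs, Slc25a5 and Ucp2 were likewise named after their values were seen. Alternatives were other pseudocounts, filters, scalings and thresholds. Transcript length, GC content and shared 31-base words came from GENCODE M21 transcripts matched by accession for all 82 genes. Start sites and coordinates came from RefSeq (GRCm38.p6). Promoter windows were matched for 68 of the 82 genes. Python 3.11.15, numpy 2.4.6, pandas 2.3.3 and matplotlib 3.10.9 were used, and the calculations were tested on simulated data.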

Additional observations from a re-analysis of the deposited data

Results flagged for a closer look

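The effect of injury differed in sign between the ages in 3 genes that passed 2-fold in adult cartilage as deposited, of which 2 depend on the processing. Each difference compares 4 single libraries, was not tested and has no replicate check. For Cox7c, a small subunit of complex IV, the log2 ratio of injured to sham was -0.11 in young and 1.19 in adult cartilage, a difference of 1.30. For Ndufc2, an accessory subunit of complex I, it was -0.04 in young and 1.84 in adult cartilage, a difference of 1.88. For Ndufs5, also an accessory subunit of complex I, it was 0.06 in young and -1.83 in adult cartilage, a difference of -1.89, and with libraries scaled to the same sum the young ratio was -0.04. Summed with BC002163, with which it shares sequence, Ndufs5 was at 0.14 in young and 0.32 in adult cartilage, so that the signs no longer differed. With median-of-ratios scaling Cox7c was at 0.86 in adult cartilage, under 2-fold. In each gene as deposited the young ratio was close to 0, and adult sham was the library that lay apart from the other 3.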

How the results depend on the processing

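With 1 library per group, no replicate could be left out. No paired analysis was possible because the labels carry no replicate numbers and each group has 1 library. Medians were taken as moved at 0.1 or more on the log2 scale for the differences between libraries, and counts at over 1.5 times. With libraries at the same sum the member median was 0.0729 in young injury, 0.33 in adult injury and 0.19 between the injured libraries. With median-of-ratios scaling it was -0.10 in adult injury, 0.0641 between the sham libraries and 0.25 between the injured, with 1 gene 2-fold higher in adult injury, and 6 higher and 3 lower in adult sham. With quantile normalization it was 0.0859, 0.0499, -0.15 and 0.20 in young injury, adult injury, sham and injured comparisons, with 5 genes higher and 6 lower in adult sham. Less the median of all genes, the member median in adult injury was 0.0851 with quantile normalization and 0.0859 without the filter, and between the sham libraries -0.19 with 5 FPKM added and -0.21 without the filter. At 1.5-fold, 15 genes were higher and 7 lower in adult injury, 5 higher and 30 lower in adult sham, and 11 higher in young injured against adult injured. At 3-fold these were 1 and 1, 1 and 2, and 0. The alternatives chosen after seeing the data were the sum of Ndufs5 and BC002163, where Ndufs5 turned to 0.32 in adult injury and -0.57 between the sham libraries, and leaving out Cox6a2, Cox7a1 and Cox8b, where 1 gene was lower in adult injury. The cause of the changes with scaling was not tested. Isoform shares do not change with scaling by 1 factor per library, and they were not recalculated with quantile normalization, which can change them.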

Other observations

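Other mitochondrial genes were described by the same counts. All 78 mitochondrial ribosomal proteins, which translate the subunits encoded in mitochondrial DNA, were at 1 FPKM or more in every library, with a median log2 ratio of 0.15 in young injury, 0.49 in adult injury, -0.54 in adult against young sham and 0.26 between the injured libraries. The medians over all genes were -0.02, 0.25, -0.31 and 0.09. At least 2-fold higher in adult injury were 3 of the 78, Mrpl52, Mrpl34 and Mrps18c, against 9.5% of all genes, and 13 were at least 2-fold lower in adult sham, against 14.6% of all genes. Mrpl52 was at 152 FPKM in sham and 198 in injured cartilage of young mice, and 54.8 and 141 FPKM in that of adults, with adult sham the low library.

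The 17 genes of pyruvate dehydrogenase and the TCA cycle had medians of 0.03, 0.16, -0.52 and 0.33 in the same comparisons. The 2 that passed 2-fold were both lower in adult than in young sham cartilage, against 14.6% of all genes, namely Dld, a shared subunit of dehydrogenase complexes, at 14.3 against 30.6 FPKM, and Suclg2, a subunit of succinyl-CoA ligase, at 5.16 against 12.3 FPKM. Of 14 regulators of mitochondrial biogenesis 12 reached 1 FPKM, with medians of -0.07, 0.33, -0.59 and 0.12. The mitochondrial transcription factors Tfb1m and Tfb2m were the 2 at least 2-fold lower in adult sham, at 1.25 against 4.56 FPKM and 2.60 against 6.43 FPKM. The 4 comparisons share libraries with each other, so these medians are not independent.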
